A study of Equus caballus with 31 samples.

Results

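The genes described here are those of 8 members of the epidermal growth factor (EGF) receptor system, selected by gene symbol: the ligands EREG, AREG, HBEGF, TGFA and BTC and the receptors EGFR, ERBB2 and ERBB3. All 8 were found in the table of synovial fluid cells, among 17538 genes, and 7 in the table of blood mononuclear cells (PBMC), among 17410 genes, where EGFR was not analysed. The contrast of osteoarthritic (OA) with healthy fluid was known when these genes were chosen, so their differences in that contrast are given as a description, with no test.

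RNA was sequenced from horses with naturally occurring OA and from healthy horses, all of genotype WT in the labels. The 16 fluid libraries were from 5 horses with OA and 11 without, the 15 PBMC libraries from 6 with OA and 9 without, and 13 horses (5 OA, 8 healthy) gave both. Horses are named as labelled, those with OA beginning OA_ and healthy ones ORC_; the labels give no treatment. Horses treated with drugs or joint injections in the preceding period were left out by the study, and OA was a clinical diagnosis at lameness examination with radiographs and joint analgesia. Depth was 25.9 to 36.3 M reads per fluid library. In PBMC the OA libraries were the deeper, at 31.7 to 34.8 M against 23.9 to 32.2 M reads.

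EGF receptor ligands are made as membrane proteins that are cut loose at the cell surface by proteases of the ADAM family and then bind receptors on the same or neighbouring cells. EGFR binds all 5 ligands named here; ERBB2 has no known soluble ligand of its own and acts as a partner of the other receptors, and ERBB3 binds neuregulins and signals mainly through its partner. Signalling through RAS and the kinase ERK induces early genes and also inhibitors that shut the receptor down. In joints the pathway is known from cartilage growth and from fibroblasts of the synovial lining.

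The labels call the cells of both tissues mixed mononuclear cells, and markers of T cells and of monocytes were counted in every library of both. In fluid, 12 synovial fibroblast markers summed to normalised counts of 133994 or more in 4 OA horses but to 1389 in horse OA_9570, where 2 of the 12 were at 0 reads. In healthy fluid the sum ran from 812 to 129590, with a median of 8755, and was highest in ORC_188 and then in ORC_205 (58971). Limma (see the processing section; Benjamini-Hochberg adjusted p below 0.05) called 3 of the 12 higher in OA. The shares called over all genes tested in fluid were 14.4% higher and 13.6% lower. All 9 T cell markers were called lower in OA fluid, and their sum did not overlap between the groups (7688 to 32843 in OA, 34051 to 125446 in healthy fluid). Macrophage and monocyte markers overlapped (43362 to 364463 in OA, 33038 to 361033 in healthy fluid; 1 of 10 called higher), and neutrophil markers were highest in OA_9570 (48825). A list of 10 immediate early and heat shock genes, kept as a sign of sample handling, was highest of all fluids in healthy horse ORC_202 (316724, against 83312 to 204715 in OA and 45605 to 114148 in the other healthy fluids), and 3 of its 10 genes were called higher in OA and 0 lower. In bulk samples such as these, more cells of a type and more RNA per cell cannot be told apart.

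EREG, encoding epiregulin, was present in every OA fluid and nearly absent from healthy fluid. Its normalised count was 244 in OA_1038, 74.1 in OA_2615, 1104 in OA_3850, 329.7 in OA_9350 and 132 in OA_9570. Of the 11 healthy fluids 8 held 0 reads, and the other values were 0.767 (1 read) in ORC_200, 5.56 in ORC_192 and 53.8 in ORC_202. The groups did not overlap. Of the 13885 genes tested in fluid, 1.57% lay higher in OA with no overlap, and nothing is read from that for EREG, which was chosen on this contrast. The mean was 377 ± 419 (SD, n = 5) in OA and 5.46 ± 16.1 (SD, n = 11) in healthy fluid, a fitted difference of 7.09 (SE 0.98) on the log2(normalised count + 1) scale. EREG passed the filter on low values (a mean of at least 10 over all libraries) through the OA libraries, and with 8 healthy libraries at 0 the fitted difference depends on the added constant, from 5.48 with a constant of 4 to 7.87 with 0.5.

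AREG, encoding amphiregulin, showed the same direction with a wider spread among OA horses. Its normalised count was 379 in OA_1038, 613 in OA_2615, 3074 in OA_3850, 5625 in OA_9350 and 43.1 in OA_9570. Healthy fluids ran from 0 through a median of 4.18 to 364 in ORC_202, with 42.6 in ORC_192 next, and 4 of the 11 had 0 reads. OA_9570 therefore lay within the healthy range, and the other OA fluids lay above every healthy one. The fitted difference was 6.98 (SE 1.36) on the log2 scale, and ran from 5.6 with edgeR to 8.59 without OA_9570 and ORC_202. EREG and AREG ranked the OA horses differently: AREG was highest in OA_9350 and lowest in OA_9570, whereas EREG was highest in OA_3850 and lowest in OA_2615.

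HBEGF, encoding heparin-binding EGF-like growth factor, was found in every fluid. OA values were 1709 in OA_1038, 3083 in OA_2615, 6748 in OA_3850, 5993 in OA_9350 and 244 in OA_9570. Healthy values had a lowest of 51.6, a median of 321 and a highest of 3274 in ORC_202, with the other healthy fluids at or below 835. The groups overlapped through OA_9570, which lay below the healthy median, and through ORC_202. HBEGF differed by 2.55 (SE 0.82) on the log2 scale, and by 3.34 without OA_9570.

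TGFA, encoding transforming growth factor alpha, did not separate the groups. Its values were 164 in OA_1038, 214 in OA_2615, 191.7 in OA_3850, 117 in OA_9350 and 429 in OA_9570, against 28.7 to 431 in healthy fluid, with a median of 195. OA_9570, lowest of the OA fluids for AREG and HBEGF, was the highest for TGFA, and ORC_202 was the highest healthy fluid. The fitted difference was 0.33 (SE 0.48).

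BTC, encoding betacellulin, varied within both groups. Counts were 259 in OA_1038, 151 in OA_2615, 69.9 in OA_3850, 50.6 in OA_9350 and 0 in OA_9570. Healthy fluid ran from 0 through a median of 12.7 to 270.1 in ORC_205, and ORC_188 (66.9) and ORC_197 (60.1) followed. The fitted difference of 1.69 (SE 1.32) rose to 3.04 without OA_9570.

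**Figure D1:**
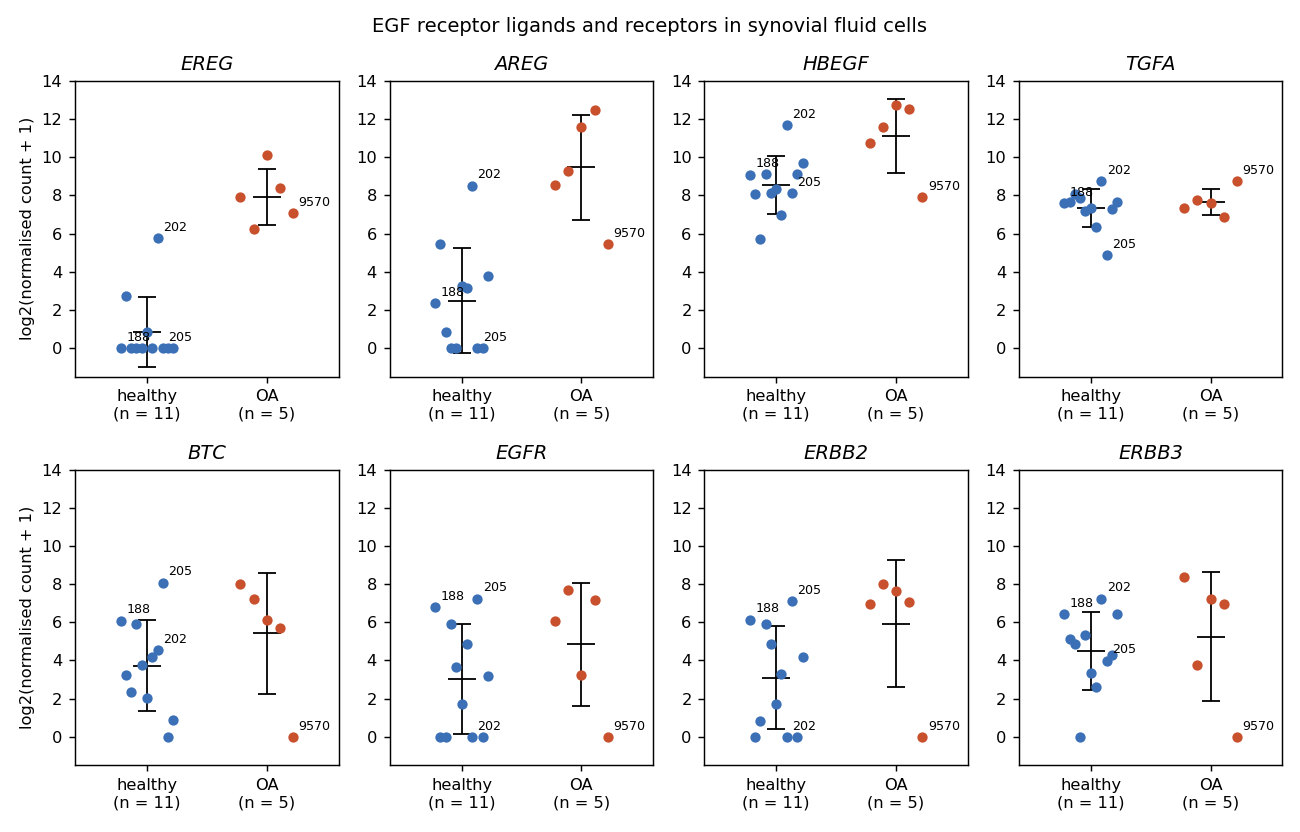
Normalised counts of the 8 members in fluid, as log2(normalised count + 1) on the vertical axis, by group on the horizontal axis. Each point is 1 horse, bars are mean and SD, and horse numbers mark OA_9570, ORC_188, ORC_202 and ORC_205. All 5 OA points of EREG lie above every healthy point, while OA_9570 is at 0 for BTC, EGFR, ERBB2 and ERBB3.

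The receptors were lowly counted in fluid, and OA_9570 had 0 reads of each. EGFR, the receptor shared by all of the ligands, had counts of 66.5 in OA_1038, 207.3 in OA_2615, 8.47 in OA_3850 and 146 in OA_9350. In healthy fluid it ran from 0 (4 horses, ORC_202 among them) through a median of 8.09 to 151 in ORC_205, with ORC_188 at 110.5. The OA and healthy values overlapped nearly throughout, with a fitted difference of 1.81 (SE 1.48).

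ERBB2 had counts of 123 in OA_1038, 261 in OA_2615, 195.9 in OA_3850 and 133 in OA_9350. Healthy values ran from 0 (3 horses) through 8.63 to 138 in ORC_205. OA_9570 apart, the OA fluids lay above all healthy fluids except ORC_205, which was higher than OA_1038 and OA_9350, and the fitted difference was 2.84 (SE 1.44), or 4.33 without OA_9570.

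ERBB3 followed another order. Its OA counts were 326 in OA_1038, 12.6 in OA_2615, 147 in OA_3850 and 122 in OA_9350, and healthy values ran from 0 in ORC_197 through 28.2 to 150.0 in ORC_202. The fitted difference of 0.74 (SE 1.25) depended on single horses, at -0.03 without OA_1038 and 2.06 without OA_9570. With 35.4 M reads in the OA_9570 library, a count of 0 allows up to 3 reads.

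In the whole fluid comparison 14.4% of the 13885 genes were called higher in OA and 13.6% lower. The same fit put EREG, AREG and HBEGF past the threshold, 3 of the 8 members and all higher, and nothing is read from that count because the members were chosen on this contrast. Relative to the median of all genes, a difference of 0.08, the 8 members had positive differences under each scaling used (median-ratio, TMM and equal totals). For the same reason nothing is read from this shared direction. The differences of TGFA (0.33, SE 0.48) and ERBB3 (0.74, SE 1.25) were smaller than their SE. Equal totals put the median of all genes at -0.12, with 1302 genes called higher and 2766 lower in place of 2006 and 1893.

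Members that shared a pattern among the healthy fluids were compared over the 11 healthy horses, which leaves the OA contrast out. The most closely linked receptors were EGFR and ERBB2, with Pearson's r = 0.96 and Spearman's rho = 0.96 on the log2 scale (two-sided permutation p = 2e-05 and 4e-05, adjusted p = 0.00036 over 18 pairs with a receptor for Pearson's r). Without ORC_188 and ORC_205, the fluids farthest from the median of EGFR, r was 0.94. This family of 18 pairs was added after the values were seen, and BTC with EGFR (r = 0.74, permutation adjusted p = 0.094) and BTC with ERBB2 (r = 0.68, permutation adjusted p = 0.14) did not pass.

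EREG and AREG were the one pair of ligands in healthy fluid with an adjusted p below 0.05, among 12 ligand pairs over fluid and blood. Pearson's r was 0.87 and Spearman's rho 0.75 (permutation p = 0.0021 and 0.0069). The permutation adjusted p was 0.025 for r and 0.082 for rho, so the threshold was met by r only. EREG entered through the OA libraries: in healthy fluid its mean of 5.46 was below the filter on low values, with 8 of 11 libraries at 0. For that reason neither a link nor the lack of one is read from tests with EREG in healthy fluid. The correlation rested on ORC_192 and ORC_202, the fluids with most EREG. Without them r was 0.40 (unadjusted permutation p = 0.22), and only ORC_200 of the remaining 9 held an EREG read. EREG with HBEGF (r = 0.59, permutation adjusted p = 0.23) and AREG with HBEGF (r = 0.52, permutation adjusted p = 0.23) did not pass. No correlation was computed over the 5 OA fluids.

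BTC, EGFR and ERBB2 were linked to the fibroblast markers in healthy fluid. Over the 11 healthy fluids the mean log2 level of the 12 fibroblast markers correlated with BTC at r = 0.88 (rho = 0.85, permutation adjusted p = 0.0067 over 16 relations), with EGFR at r = 0.86 (rho = 0.87, permutation adjusted p = 0.011) and with ERBB2 at r = 0.81 (rho = 0.80, permutation adjusted p = 0.021). Leaving out ORC_196 and ORC_200, the fluids farthest from the median of the list, gave 0.92, 0.86 and 0.82. For EREG and AREG r was -0.08 and -0.13, and for ERBB3 it was -0.04 (permutation adjusted p = 0.89, 0.87 and 0.90). Of the 11 healthy fluids 8 were at 0 for EREG and 4 for AREG, whose median was 4.18. No lack of a link is therefore read for either gene. This family of 16 relations was not planned in advance, and a difference between these correlations was not tested. In OA_9570 the fibroblast sum was 1389, with EREG at 132, AREG at 43.1, HBEGF at 244 and TGFA at 429. BTC, EGFR, ERBB2 and ERBB3 had 0 reads in that fluid. The part of fibroblasts in the OA differences of the members was not tested.

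The immediate early and heat shock list was also set against the members in the healthy fluids, since ORC_202 was highest for it and for 5 members: EREG, AREG, HBEGF, TGFA and ERBB3. As ORC_202 prompted this comparison and is part of it, the p-values are given as a description. The list's r was 0.81 with EREG, 0.72 with HBEGF, 0.64 with AREG, 0.64 with TGFA and 0.51 with ERBB3. By r none of these 5 passed in the same family of 16 (permutation adjusted p = 0.053, 0.063, 0.11, 0.12 and 0.23). By rank TGFA did (rho = 0.76, permutation adjusted p = 0.034). Without ORC_201 and ORC_202 r fell to 0.41, 0.22, 0.49, 0.42 and 0.12. The part of sample handling in the result was not tested.

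**Figure D2:**
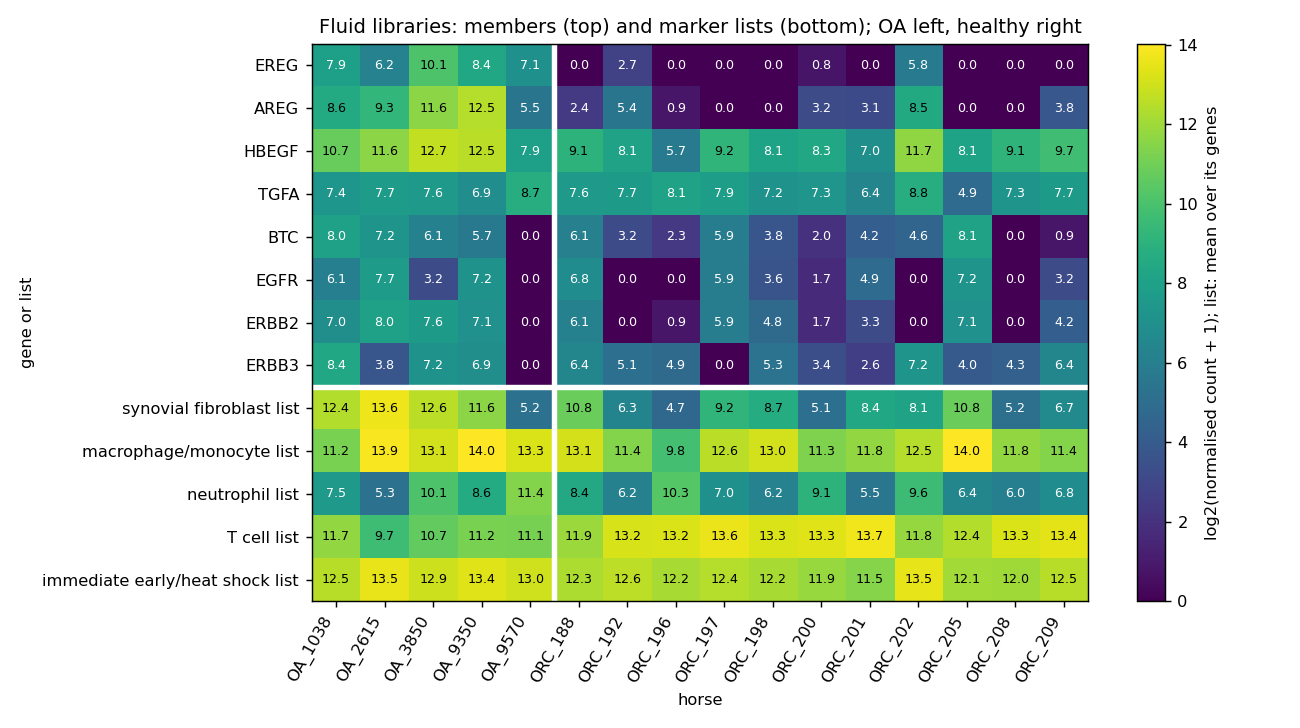
Fluid libraries in columns (OA left, healthy right) with the 8 members above and 5 marker lists below; colour and number give log2(normalised count + 1), for a list the mean over its genes. In healthy fluid EGFR, ERBB2 and BTC are high where the fibroblast list is high, all 3 are at 0 in OA_9570, and EREG is at 0 in 8 healthy horses.

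Genes with a pattern like EREG and AREG were sought over all 16 fluids after the mean of each group was taken off, so that the OA difference did not enter. Among 13884 other genes, EREG was most like CLEC14A (Pearson's r = 0.86), TRIB1 (0.85), SIPA1L3 (0.84), SAMSN1 (0.83) and PECAM1 (0.82). CLEC14A and PECAM1 are surface proteins best known from endothelial cells, PECAM1 also from leukocytes and platelets, and TRIB1 is a pseudokinase. CLEC14A averaged only 13.6, near the filter on low values. Sums of 6 endothelial markers overlapped between the groups (2943 to 4322 in OA, 2143 to 9106 in healthy fluid). A part of endothelial cells was not tested. AREG stood in place 10 for EREG, at r = 0.80. AREG was most like DUSP5 (0.85), a phosphatase that acts on ERK, CD80 (0.83), a costimulatory ligand of antigen-presenting cells, NR4A3 (0.82), an early-induced nuclear receptor, EREG itself and RIOK3 (0.796). HBEGF stood in place 75 for AREG (r = 0.67) and in place 244 for EREG (r = 0.56), while EGFR was at -0.11 and -0.41. These likenesses are descriptions over 16 libraries, in which 8 values of EREG were 0.

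EREG and AREG are neighbours on chromosome 3 of the EquCab3.0 horse genome. In the coordinates of the blood table AREG (ENSECAG00000022525) lay at 63151227 to 63161785 and EREG (ENSECAG00000007588) at 63220455 to 63236724, 58.7 kb apart with no other listed gene start between them. BTC (ENSECAG00000022505) lay on the AREG side at 62875070 to 62915916. The position of EGFR was not analysed. The other 4 members lay elsewhere: HBEGF on chromosome 14 (35782536 to 35793166), TGFA on chromosome 15 (32982962 to 33083451), ERBB2 on chromosome 11 (22757875 to 22780242) and ERBB3 on chromosome 6 (74671941 to 74690339).

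Within 500 kb of the start of EREG or AREG the blood table listed 11 genes. Whether those around the pair moved together was not tested. EPGN (63285901 to 63292509), the ligand gene next to EREG, had normalised counts of 0 to 10.8 in OA and of 0 to 3.84 in healthy fluid. Of the chemokine genes further along, CXCL6 was 4.34 ± 7.66 (SD, n = 11) in healthy and 87.7 ± 84.5 (SD, n = 5) in OA fluid, a difference of 4.35 (SE 0.98). CXCL6 passed the filter on low values through the OA libraries, with a healthy median of 0.863, so its difference is given with no test. CXCL8, a neutrophil attractant, differed by 4.34 (limma adjusted p = 0.0051; edgeR adjusted p = 0.14, DESeq2 adjusted p = 0.11). CXCL1, another, differed by 2.47 (limma adjusted p = 0.047, edgeR adjusted p = 0.26, DESeq2 adjusted p = 0.24). The limma call was lost without any one of 10 horses (up to an adjusted p = 0.12 without OA_2615). PARM1 differed by 0.41 (adjusted p = 0.59) and the unnamed gene ENSECAG00000026949 by -0.27 (adjusted p = 0.49). PPBP and ENSECAG00000012560 were below the filter in fluid, with highest values of 38.1 and 15.9. In blood, none of the 5 of these genes that were tested and are no members was called (limma adjusted p = 0.47 to 0.90).

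**Figure D3:**
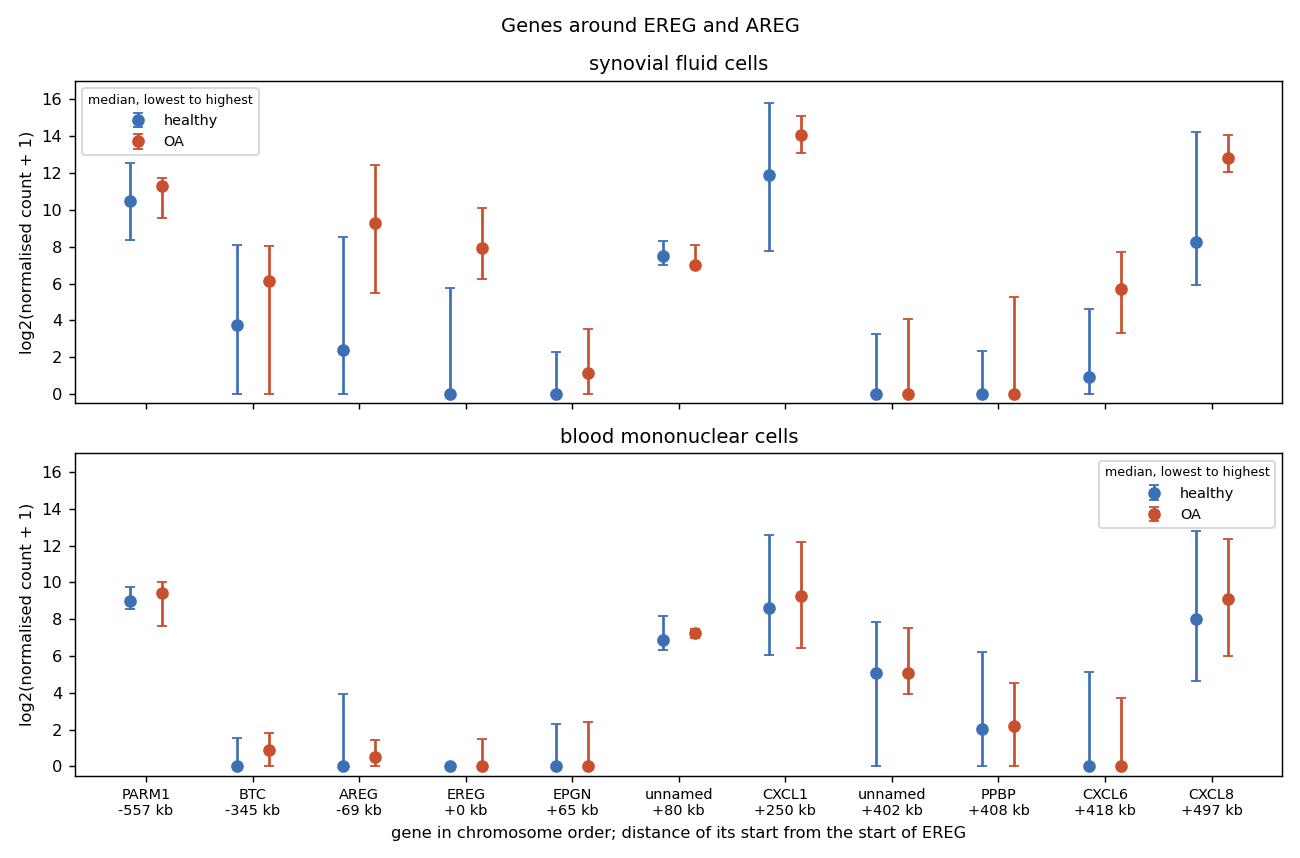
The 11 genes around EREG and AREG in chromosome order, with the distance of each start from the start of EREG in kb; points are group medians and bars run from the lowest to the highest library, as log2(normalised count + 1). In fluid, PARM1, BTC, AREG, EREG, CXCL1, CXCL6 and CXCL8 have higher OA medians, while EPGN, next to EREG, stays near 0. In blood the medians of EREG, AREG and EPGN are near 0 in both groups.

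In blood the OA contrast was tested. EREG and AREG were nearly absent from PBMC. EREG had 0 reads in the 9 healthy libraries, 248 M reads in all, which allows up to 0.0121 reads per M, and 3 reads in 2 of the 6 OA libraries. AREG had 25 reads in all 15 libraries, 14 of them in healthy horse ORC_197. BTC had 8 reads in the OA libraries and 2 in the healthy ones, and ERBB2 had 0 and 6. No fold is given for these 4 genes, which lay at or near the limit of 3 reads. Horse OA_3850, with 1043 EREG reads in its fluid, had 0 in its blood. The tables were normalised separately, so these are reads of each library and not compared levels.

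HBEGF and TGFA were the members that passed the filter in blood, and ERBB3 fell just short of it with a mean of 8.83. HBEGF counts were lowest at 31.3, with a median of 59.1 and a highest of 189.6 (OA_1038) in OA, where OA_9350 had 181; in healthy blood they ran from 17.9 through 39.0 to 63.4. OA_1038 and OA_9350 lay above every healthy horse and the other 4 OA horses within their range. HBEGF averaged 92.7 ± 72.8 (SD, n = 6) in OA and 39.4 ± 15.7 (SD, n = 9) in healthy blood. The difference of 0.95 (SE 0.42) did not pass (limma adjusted p = 0.17). DESeq2 alone called it (1.23, adjusted p = 0.038, against 0.084 with edgeR), and without OA_1038 it was 0.68 (limma adjusted p = 0.29).

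TGFA counts in blood ran from 56.7 through a median of 80.0 to 199 (OA_9350) in OA and from 10.4 through 31.5 to 167 (ORC_202) in healthy horses. ORC_202 apart, every OA value was above every healthy one. TGFA averaged 96.6 ± 51.9 (SD, n = 6) in OA and 45.3 ± 47.4 (SD, n = 9) in healthy blood. The difference of 1.38 (SE 0.47) did not pass (limma adjusted p = 0.084). Without ORC_202 it was 1.67 and passed (limma adjusted p = 0.016); in the other left-out fits the adjusted p was up to 0.215. EdgeR gave 1.10 (adjusted p = 0.175) and DESeq2 1.10 (adjusted p = 0.124). In blood 3.2% of 13072 genes were called higher and 2.2% lower. Of HBEGF and TGFA 0 of the 2 were called by limma, with unadjusted p of 0.037 for HBEGF and 0.0087 for TGFA, and 0 by edgeR and 1 by DESeq2. Neither was without overlap, as 0.612% of all genes were in the higher direction.

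Cell markers moved alongside in blood. The 10 macrophage and monocyte markers summed to 90428 to 224936 in OA and 51739 to 116512 in healthy blood, with 2 of 9 tested genes called higher, and the 4 neutrophil markers to 31726 to 69637 and 8066 to 38815, with 1 of 4 called higher. The immediate early and heat shock list was highest in ORC_202 (168920), OA_9350 (137448) and ORC_197 (96616), with 0 of 10 genes called. The OA libraries were also the deeper, as given above. The part of these in the HBEGF and TGFA differences was not tested.

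ERBB3 was counted in all 6 OA bloods (4.23 to 22.7, median 9.66) and in 8 of 9 healthy ones (0 to 17.4, median 6.71), and the groups overlapped. With the filter lowered to a mean of 1 the difference of ERBB3 was 0.67 (limma adjusted p = 0.52).

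**Figure D4:**
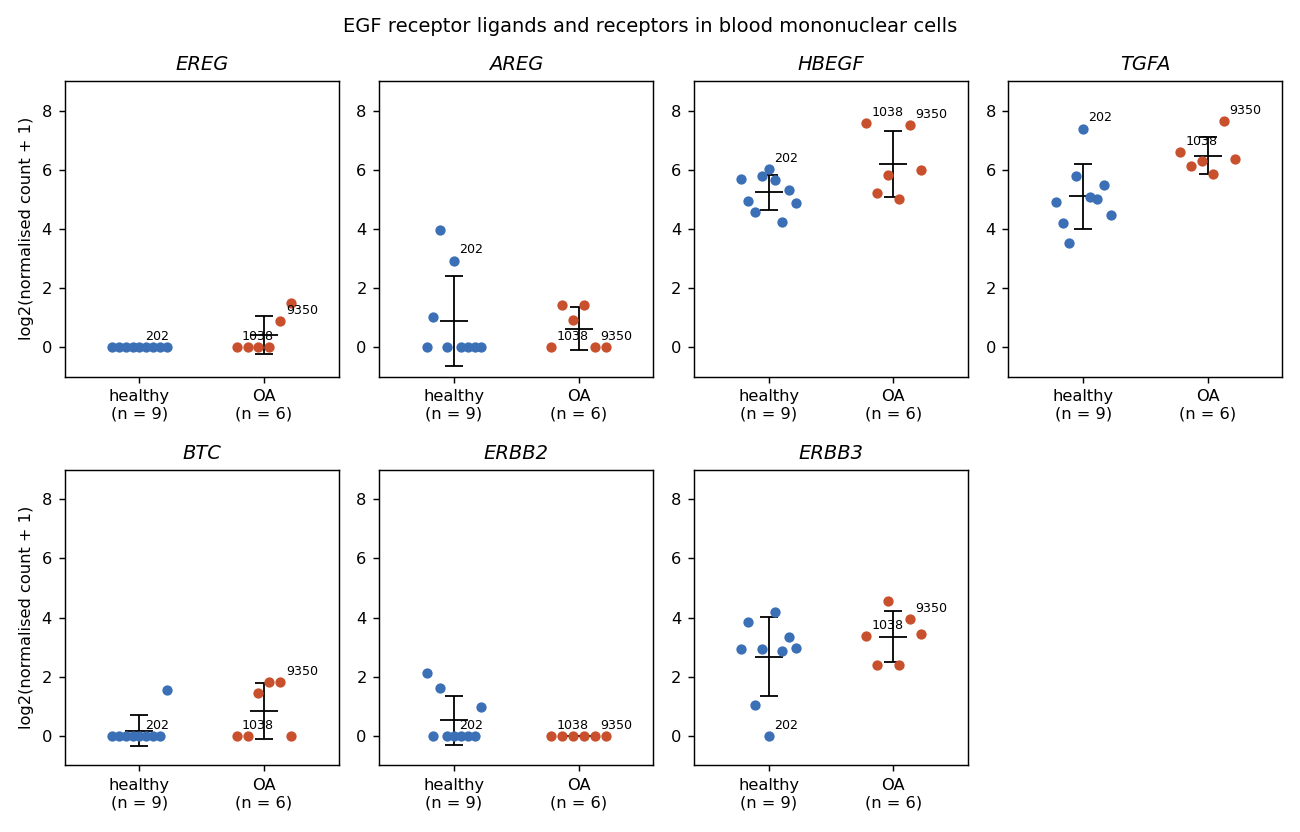
Normalised counts of the 7 members of the blood table, as log2(normalised count + 1), by group; each point is 1 horse, bars are mean and SD, and horse numbers mark OA_1038, OA_9350 and ORC_202. TGFA is higher in OA apart from ORC_202, HBEGF overlaps in 4 of 6 OA horses, and EREG, AREG, BTC and ERBB2 are near 0.

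HBEGF and TGFA were linked between horses in OA blood by r only. In the 6 OA horses r was 0.83 and rho 0.94 (exact permutation p = 0.0069 and 0.017; adjusted p = 0.042 for r and 0.10 for rho over the 12 ligand pairs). Without OA_1038 and OA_9350 r was 0.95 over 4 horses. In the 9 healthy horses r was 0.69 and rho 0.72 (exact permutation p = 0.031 and 0.037), which did not pass after adjustment (exact permutation adjusted p = 0.12), and r was 0.79 without ORC_197 and ORC_207. In healthy fluid the same pair had r = 0.36 (permutation adjusted p = 0.35). Whether the link differs between tissues was not tested.

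No link between fluid and blood of the same horse was detected for these ligands. Over the 8 healthy horses with both samples r was 0.28 for HBEGF (rho = 0, exact permutation p = 0.55) and 0.21 for TGFA (rho = -0.21, exact permutation p = 0.57). Both relations turned negative without 2 horses (-0.69 without ORC_192 and ORC_202; -0.95 without ORC_202 and ORC_205). Among the OA horses, OA_9570 had the lowest HBEGF in fluid (244) and a middle value in blood (62.3), and OA_1038, with the most in blood (189.6), had 1709 in fluid.

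As a description, the OA effect in fluid minus that in blood was 1.59 (SE 0.95) for HBEGF and -1.05 (SE 0.69) for TGFA on the log2 scale, over 4 group means. With fluid and blood paired within the 13 horses (the replicate block) the values were 0.88 (SE 0.88) and -1.21 (SE 0.73). The other members did not pass the filter in both tables.

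Other genes of the pathway were taken from 6 lists that hold no member. In fluid 19 of 78 genes tested were called higher in OA and 5 lower, or 24.4% and 6.41%, against 14.4% and 13.6% of all genes. The lists were chosen with earlier results of these data known, so nothing is read from these shares. Some genes that ERK induces and some brakes on the receptor were among the higher ones, and the listed shedding proteases were mostly not called. The 19 fell to 10 without OA_2615 and to 9 without OA_3850, and were 30 without OA_9570 and ORC_202 together. With scaling to equal totals 11 were higher and 8 lower. No called gene changed direction with 1 library left out, and 11 of the 24 stayed called whichever library was left out.

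Of 17 ERK-induced target genes tested in fluid, 5 rose and 0 fell, with a median difference of 1.12. FOSL1, an AP-1 transcription factor, rose from 47.1 ± 61.7 (SD, n = 11) to 268 ± 139 (SD, n = 5), a difference of 3.26 (SE 0.78, limma adjusted p = 0.0067). PLAUR, the urokinase receptor, differed by 2.94 (limma adjusted p = 0.0039) and the secreted protein precursor VGF by 3.20 (0.017; 0.055 without OA_9350). Early genes of the same list were not called, with EGR1 at 1.47 (adjusted p = 0.16) and FOS at 0.45 (adjusted p = 0.40).

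Of 15 negative feedback genes tested in fluid, 5 rose and 1 fell, with a median of 0.71. ERRFI1, which binds and blocks EGFR, went from 585 ± 463 (SD, n = 11) to 5637 ± 4135 (SD, n = 5), a difference of 3.01 (SE 0.69, limma adjusted p = 0.0059). SOCS3, a brake on cytokine receptors, differed by 1.37 (0.023) and the phosphatase PTPN1 by 0.71 (0.029), and CBLB, a ubiquitin ligase that also restrains T cells, fell by 1.09 (limma adjusted p = 0.0059). The SOCS3 call was lost without OA_2615, OA_3850 or OA_9350 (0.053, 0.066 and 0.054) and with edgeR (0.064). The PTPN1 call was lost without OA_3850 or OA_9350 (0.098 each) and with equal totals (0.11). Feedback genes that act on ERK, DUSP6 (0.75, adjusted p = 0.093) and DUSP5 (1.23, adjusted p = 0.076), were not called.

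Of 21 receptor-proximal signalling genes tested in fluid, 3 rose and 3 fell, with a median of -0.10. HRAS rose by 1.01 (limma adjusted p = 0.005). PLCG1, a phospholipase used by T cell receptors as well, fell by 1.85 (limma adjusted p = 0.0015), the RAS activator SOS1 fell by 0.70 (0.011) and the kinase subunit PIK3CA fell by 0.70 (0.017; 0.055 without OA_9350). The T cell markers given above were lower in the same libraries, and their part in these falls was not tested.

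Of 11 shedding genes tested in fluid, 2 rose and 0 fell, with a median of 0.20. ADAM9 rose from 3380 ± 2652 (SD, n = 11) to 11142 ± 7813 (SD, n = 5), a difference of 1.78 (SE 0.52, limma adjusted p = 0.018; 0.066 without OA_2615). RHBDL2, a rhomboid protease, differed by 2.696 (limma adjusted p = 0.0499, edgeR adjusted p = 0.17, DESeq2 adjusted p = 0.11). The limma call was lost without any one of 14 of the 16 horses. ADAM17, the protease known to release AREG, EREG, HBEGF and TGFA, differed by -0.26 (adjusted p = 0.33) and its partner RHBDF2 by 0.27 (adjusted p = 0.41). The other ErbB genes gave 2 tested ligands, NRG2 (1.99, adjusted p = 0.093) and NRG4 (2.22, adjusted p = 0.15), and 0 calls; EGF, NRG1, EPGN and the receptor ERBB4 were below the filter in fluid.

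Of 12 genes tied to cAMP and prostaglandin, routes known to induce AREG and EREG in other cells, 4 rose and 1 fell in fluid, with a median of 0.93. NR4A3 differed by 3.89 (limma adjusted p = 0.0051), ATF3 by 1.80 (0.033) and CREM, a cAMP-responsive factor, by 1.08 (0.014). The ATF3 call was lost with edgeR (0.075) and without OA_2615, OA_3850, OA_9350 or ORC_200 (0.0503 to 0.099). PTGER4, a prostaglandin E2 receptor, fell from 4255 ± 886 (SD, n = 11) to 1833 ± 508 (SD, n = 5), by 1.24 (limma adjusted p = 0.000713), and PTGS2, which makes prostaglandin, differed by 0.79 (adjusted p = 0.44).

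In blood 4 of 69 genes of the 6 lists were called higher and 0 lower, or 5.80%, against 3.2% of all genes. They were ADAM9 (0.80, limma adjusted p = 0.030), SOS2 (0.82, 0.022), the ERK pathway inhibitor SPRED1 (1.33, 0.035) and PLAUR (1.47, 0.020). All 4 lost their calls without OA_3850, OA_9350 or OA_9570, at adjusted p of 0.061 to 0.11, fits in which 14 to 17 genes of the whole table were called higher. Without ORC_207 or ORC_208, 2 were called. The 0 called lower stood beside 1 with edgeR and 1 with DESeq2. As these are the same lists, nothing is read from their share in blood either.

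**Figure D5:**
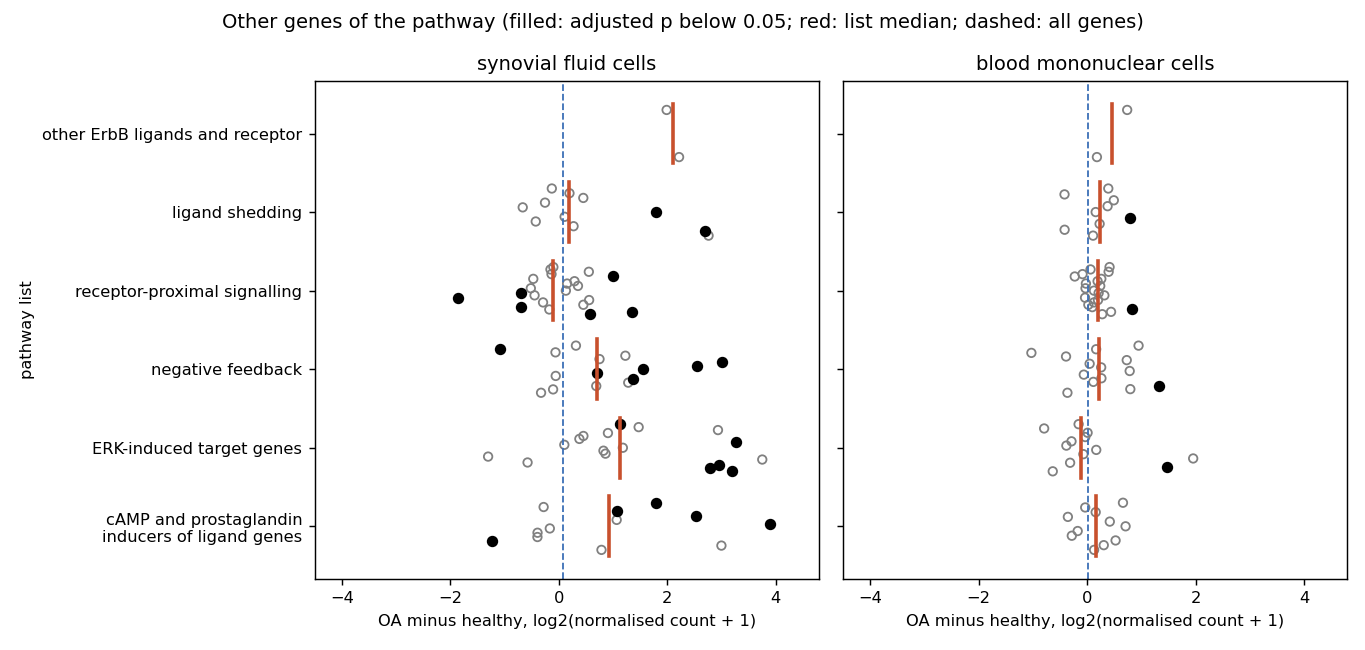
Difference of OA minus healthy on the log2(normalised count + 1) scale for the tested genes of 6 pathway lists, in fluid (left) and blood (right). Each point is 1 gene, filled where the limma adjusted p is below 0.05; red lines are list medians and the dashed line the median of all genes tested. ERK-induced genes have a median of 1.12 over the 17 tested in fluid and of -0.11 over the 12 tested in blood, which are unlike sets of genes.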

How the data were processed

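RNA of fluid cell pellets, freed from fluid by hyaluronidase and centrifugation per the labels' protocols, and of PBMC was sequenced after oligo(dT) selection. Each deposited value is a normalised signal, a gene's reads over a median-ratio size factor, and each tissue has its own table. The submitters' processing notes name EquCab3.0, DESeq, HTSeq, STAR 2.7.3, cutadapt and Partek, without settings. Low values are whole multiples of 1 read, which gave back reads and depth (99.87% to 99.98% of values whole within 0.1 of a read). The number of horses limits precision, and floors of 3 reads cover counting error only.

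Limma 3.58.1 was run per tissue on log2(value + 1), for genes averaging 10 or more (trend, robust; R 4.3.3), OA against healthy, two-sided, with Benjamini-Hochberg adjustment over all genes; SE, differences and adjusted p are from it unless named otherwise. Count tests on recovered reads used edgeR 4.0.16 (on TMM factors) and DESeq2 1.42.0. The labels give no batch. Correlations within a group have two-sided permutation p-values, exact for up to 9 libraries and from 100000 resamples otherwise. No near copies were found (smallest chi-square per gene between libraries of a group 35.9). The fits were tested on simulated data. Fluid and blood were paired by the horse numbers of the titles. Deviations from the group means correlated at over 0.1 in 13 of 13 horses. Samples of unlike number were not compared, so this does not check the pairing.

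The members and lists were chosen with earlier results of these data known. Named genes are the members, genes within 500 kb of EREG or AREG, up to 4 called genes of smallest p per list and tissue, and the 5 genes most like EREG and AREG; EGR1, FOS, DUSP5, DUSP6, ADAM17, RHBDF2, NRG2, NRG4, PTGS2 and the genes below the filter were added after their values were seen. A gene that this rule names is not reported here. No sequences are shown.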

Additional observations from a re-analysis of the deposited data

Results flagged for a closer look

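Of 20 combinations of a member and a group of 5 to 9 horses, 5 held a horse far from the others. The rule is set to flag about 1 in 20 for normally distributed values. Skewed counts, many of them at 0, need not follow that rate, so nothing is read from the number flagged. EREG in OA fluid was far higher in OA_3850, at 1104, than in the other 4 horses. TGFA in blood stood apart in OA_9350 (199) among OA horses and in ORC_202 (167) among healthy ones. AREG in healthy blood was 14.6 (14 reads) in ORC_197, and BTC in healthy blood was 1.94 (2 reads) in ORC_209 and 0 in the other 8 horses.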

How the results depend on the processing

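ERBB3 in fluid, a value with no test, went from 0.74 to -0.03 without OA_1038 and to 2.33 without OA_9570 and ORC_202. In blood, HBEGF was called with DESeq2 alone (1.23), and ran from 0.68 to 1.19 with 1 horse left out, TGFA from 1.15 to 1.67. In fluid, left-out horses gave 6.55 to 7.59 for EREG and 6.23 to 7.98 for AREG; edgeR gave 6.07 and 5.6, DESeq2 6.11 and 5.6, and added constants of 4 and 0.5 gave 5.98 and 7.42 for AREG. The pathway genes called higher in fluid numbered 11 with equal totals, 12 with edgeR at a minimum mean of 1 (chosen after seeing the data), 30 without OA_9570 and ORC_202, and 9 to 25 with 1 horse left out; those called lower were 8 with equal totals. In blood 9 were higher with DESeq2 and 0 to 5 with 1 horse left out, and those lower were 1 with edgeR, 1 with edgeR at a minimum mean of 1, 1 with DESeq2 and 0 to 2 with 1 horse left out. Without the 2 libraries farthest from the median, the link of EREG with AREG was 0.40, that of HBEGF with TGFA in healthy blood 0.79 (unadjusted exact permutation p = 0.023), and the links of BTC with EREG, HBEGF and TGFA in healthy fluid turned to -0.24, -0.27 and 0.35. The cause of these changes was not tested. The replicate block gave 0.88 for HBEGF and -1.21 for TGFA in the difference between tissues and bears on no other result. Depth limits EREG, AREG, BTC and ERBB2 in blood.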
